A study of Mus musculus with 12 samples.

Results

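The genes for the proteins of the cytosolic ribosome were examined in maps of H4K8ac, acetylation of lysine 8 on histone H4, from neonatal and adult mouse oligodendrocyte progenitor cells (OPCs). They were chosen by symbol (Rpl, Rps or Rplp followed by a number, without symbols ending in -ps and without the Rps6k kinases), and 83 such genes were found among the 23433 genes named in the peak lists. Of these, 43 encode proteins of the large subunit, 29 of the small subunit and 3 of the P-stalk, and 8 are copies whose symbol resembles that of a core gene. All 83 had a promoter peak in at least 1 library and so belong to the 18548 genes with a promoter peak in any list, against which they were compared. RefSeq holds 6 further symbols of this form (Rps25, Rpl6l, Rps3a2, Rps3a3, Rpl39l and Rpl3l), which were not analysed here.

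The ribosome is built from a large and a small subunit, and each core protein is needed in the same number as its partners, with the acidic proteins of the P-stalk as the exception. The genes are spread over nearly all chromosomes, are short and very actively transcribed, and commonly start transcription within a run of pyrimidines, which in the mRNA places their translation under control of the mTOR pathway. H4K8ac is a mark of active promoters and enhancers and is bound by bromodomain proteins. Progenitors that divide or differentiate into myelin-forming oligodendrocytes make much new protein.

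Progenitors were sorted from the forebrain of mice with the genotype PdgfrαH2BEGFP, in which a green fluorescent histone reports Pdgfra, a gene that OPCs express and that some vascular fibroblast-like cells express too. All libraries share this genotype. The neonatal group was taken at postnatal day 5 and the adult group at postnatal day 60, with 3 biological replicates of H4K8ac and 3 of input each; the labels do not say how many animals a replicate pooled, nor their sex. The inputs were not analysed here.

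Each H4K8ac library came with its own peak list, of 9097, 31189 and 7353 peaks in neonatal replicates 1 to 3 and 72278, 72661 and 77002 in the adult ones. Read numbers are not part of the files, so the depth behind a list is unknown, and the list of neonatal replicate 2 was far longer than those of the other neonatal libraries. Of 8 OPC marker genes, 6 to 8 had a promoter peak in each neonatal and 6 or 7 in each adult library, and Pdgfra itself was covered in all 6. At Pdgfra the authors' deposited table gave a log2 fold change of −1.23, lower in adults (authors' adjusted p = 0.027). Of the 5 OPC markers with a promoter site in the authors' deposited table, Pdgfra was the only negative one. The other 4 were positive, among them Cspg4 (3.61) and Sox10 (1.82). Covered bases around the start were higher in every adult than in every neonatal library for 5 of the 8 OPC markers. Of 8 markers of mature oligodendrocytes, 1 or 2 had a promoter peak in the neonatal libraries and all 8 in the adult ones. Peaks covered on average 68.6, 176 and 0 bp around the start of an oligodendrocyte marker in the neonatal libraries against 3600, 3725 and 4685 bp in the adult ones, and Mog, Mag, Mobp, Opalin and Aspa were among those at 0 in all 3 neonatal libraries. Of the 8 microglial markers only Cx3cr1 had a promoter peak in any list, and of the 8 endothelial ones only Pecam1, Kdr and Esam. Cx3cr1, Pecam1 and Kdr were covered in every adult and in no neonatal library, and Esam in neonatal replicate 2 alone. Promoter peaks were found in the neonatal and adult libraries for 0 to 5 and 3 to 5 of 8 neuronal markers, 2 to 6 and 3 to 6 of 8 astrocytic markers, and 0 to 3 and 1 or 2 of 8 fibroblast markers. Single markers in these lists were higher in every adult library, among them Tubb3 (0, 422 and 0 bp against 3377, 3874 and 4219 bp), Slc1a3 (167, 724 and 0 bp against 1976, 2371 and 3648 bp) and Col1a1 (0, 168 and 0 bp against 530, 391 and 527 bp). This held for 3 of 6 neuronal, 2 of 7 astrocytic and 1 of 4 fibroblast markers with promoter peaks, against 68.6% of all genes. Other markers, among them Gad2, Gja1, Gfap and Pdgfrb, were covered in neonatal replicate 2 alone, and none was higher in every neonatal library. The part of these differences between the sorted populations in the results below was not tested.

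The promoters behind the contrasts described below are shown for 6 genes whose RefSeq start lies within 4 bp of the start used in the lists. The first 3 are X-linked genes without a neonatal peak and the last 3 are autosomal genes with a peak in all 6 libraries. Each sequence is RefSeq's for GRCm38.p6, 5′ to 3′ on the strand of the gene, with 100 bases before the start and the first 20 transcribed bases. Capitals mark CCGGAAG, the core of the binding site of ETS-family factors, on either strand, and TATAAA and the pyrimidine words CTCTTT and CTTTCC on the strand of the gene.
Rpl10 (chrX:74270716-74270835, + strand): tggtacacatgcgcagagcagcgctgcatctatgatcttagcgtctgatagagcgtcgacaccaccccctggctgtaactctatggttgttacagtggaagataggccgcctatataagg
Rpl36a (chrX:134585554-134585673, + strand): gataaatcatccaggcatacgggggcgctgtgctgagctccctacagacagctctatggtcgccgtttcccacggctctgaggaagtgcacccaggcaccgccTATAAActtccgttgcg
Rps4x (chrX:102189372-102189491, - strand): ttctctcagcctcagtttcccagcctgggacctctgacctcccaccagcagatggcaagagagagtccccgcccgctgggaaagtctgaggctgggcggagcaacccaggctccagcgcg
Rpl10a (chr17:28328371-28328490, + strand): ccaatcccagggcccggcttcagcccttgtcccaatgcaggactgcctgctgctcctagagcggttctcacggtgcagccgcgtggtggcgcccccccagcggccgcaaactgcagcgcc
Rpl19 (chr11:98026610-98026729, + strand): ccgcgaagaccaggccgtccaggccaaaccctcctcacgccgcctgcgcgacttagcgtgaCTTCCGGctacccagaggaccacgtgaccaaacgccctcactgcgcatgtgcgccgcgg
Rps7 (chr12:28635934-28636053, - strand): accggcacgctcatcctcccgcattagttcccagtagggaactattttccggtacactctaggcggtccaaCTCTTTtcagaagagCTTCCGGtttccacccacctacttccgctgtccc

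RefSeq's promoter table, which runs from 250 bases before to 50 after a start, matched 61 of the 83 genes. CCGGAAG was found on either strand of the promoter of 23 of them (37.7%), against 9.93% of the 27025 genes of the table. Within 50 bases of the start and on the strand of the gene, CTCTTT or CTTTCC (which can overlap each other) was found in 30 of the 61 (49.2%), against 9.29% of all genes. On both strands of the whole window the pyrimidine words were found in 73.8% and 44.8%. TATAAA on both strands of the whole window was found in 13.1% of the ribosomal protein promoters and 15.7% of all, and within 50 bases of the start on the strand of the gene in 8.20% and 4.05%. The words were chosen with the sequences in view, and a match describes these letters only.

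More ribosomal protein genes carried a promoter peak in the adult libraries, and their peaks were wider. A promoter peak, one the authors annotated as lying within 3000 bp of a transcription start, was assigned to 32, 74 and 28 of the 83 genes in neonatal replicates 1, 2 and 3, and to 79, 80 and 79 in the adult replicates. The means were 44.7 ± 25.5 and 79.3 ± 0.577 genes (SD, n = 3 and 3). Of all 18548 genes, 34.4%, 73.9% and 30.3% had a promoter peak in the neonatal libraries and 83.6%, 81.5% and 83.5% in the adult ones. The median width of these peaks was 284, 381.5 and 214 bp in the neonatal libraries and 477.5, 475 and 589 bp in the adult ones, a difference of 221 bp between the age means. All promoter peaks had nearly the same widths, 276, 382 and 269 bp against 469, 469 and 590 bp, a difference of 200.3 bp. In total they covered 9549, 46160 and 7956 bp in the neonatal libraries against 76553, 74236 and 100677 bp in the adult ones, 5.46-fold more by the ratio of geometric means, where the promoter peaks of all genes covered 6.36-fold more. At the ribosomal protein genes no neonatal library reached an adult one in any of these 3 quantities. The exact two-sided permutation test gave p = 0.1 for each, which is the smallest value 3 against 3 libraries allow, and p = 0.1 after Benjamini-Hochberg adjustment over 4 quantities.

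The fourth quantity was the number of bases within 3000 bp of each gene's start that any peak covered, whichever gene the peak was assigned to. Over the 83 genes it averaged 128, 647 and 107 bp in the neonatal libraries and 1016, 997 and 1261 bp in the adult ones, 5.24-fold more in adults (exact permutation p = 0.1; 9.27-fold without neonatal replicate 2). The same averages over all 18548 genes were 153, 590 and 125 bp, and 1117, 1106 and 1398 bp, 5.34-fold more in adults. The rise at ribosomal protein genes was therefore close in size to that of all genes. Without the like-named copies it was 4.85-fold, and the rise in bases covered by promoter peaks was 4.95-fold. In the 2 sparse neonatal libraries and in the adult ones the ribosomal protein genes had somewhat fewer covered bases than the average gene, and in neonatal replicate 2 somewhat more.

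**Figure D1:**
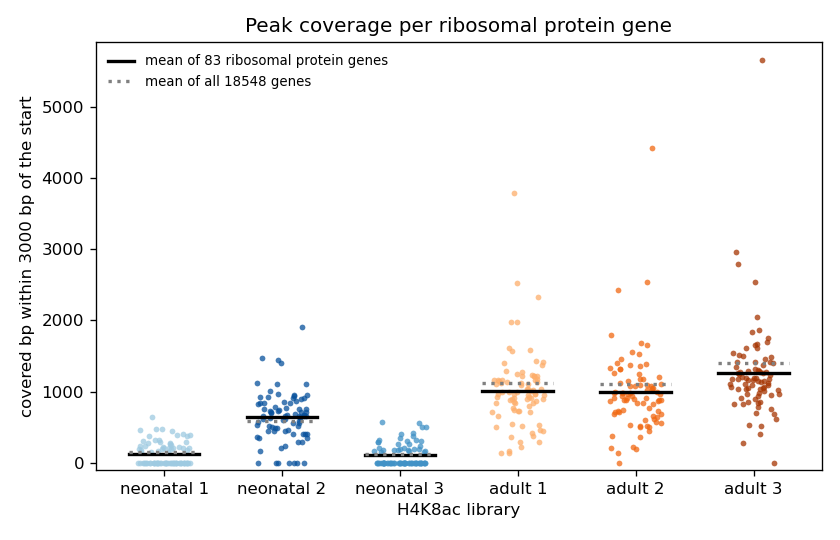
Each point is 1 of the 83 ribosomal protein genes; the vertical axis gives the bases within 3000 bp of its start that H4K8ac peaks covered, for the 3 neonatal and 3 adult libraries. Solid lines mark the mean of the 83 genes (128, 647 and 107 bp, then 1016, 997 and 1261 bp) and dotted lines the mean of all 18548 genes; the highest point of each adult library is Rpl32l.

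Gene by gene, covered bases were higher in every adult than in every neonatal library for 65 of the 83 genes (78.3%), where 68.6% of all genes met the same condition. In the opposite direction there was none among the 83, and 0.189% among all genes. Of the 18 genes that did not meet it, 16 did so once neonatal replicate 2 was left out, which brought the count to 81 of 83 (80.2% of all genes), and the other 2 were the copies Rpl10l and Rps4l. An assigned promoter peak in all 3 adult libraries was found for 76 genes (91.6%, against 73.1% of all genes), and in all 6 libraries for 16 (19.3%, against 21.5%). In the neonatal libraries 17 genes had a promoter peak in all 3, 26 in 2, 31 in 1 and 9 in none, and for all 31 with a single library that library was replicate 2. Of all 18548 genes the numbers were 4220, 3239, 6574 and 4515, and replicate 2 was the single library for 6344 of the 6574. Genes without a neonatal promoter peak thus made up 10.8% of the ribosomal protein genes and 24.3% of all genes.

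**Figure D2:**
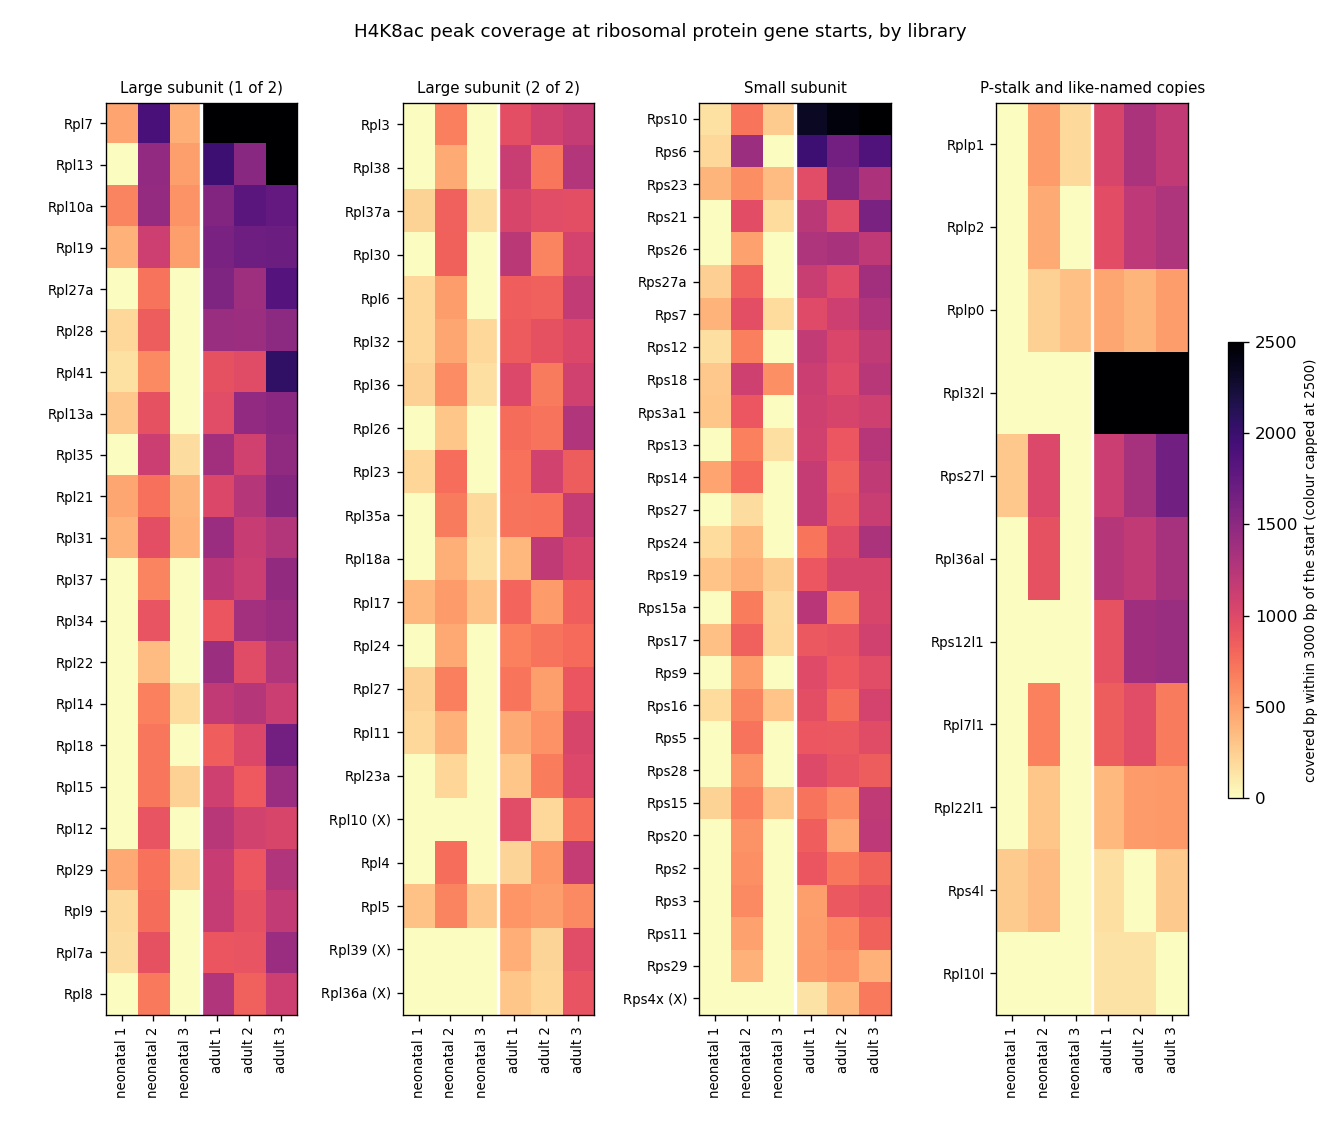
Colour gives the covered bases within 3000 bp of the start of the ribosomal protein genes named (rows, by subunit and ordered by adult mean) in the 6 H4K8ac libraries (columns), capped at 2500 bp; (X) marks the 4 X-linked genes. Most genes are pale in neonatal replicates 1 and 3 and darker in replicate 2 and the adults, and the 4 X-linked genes have no covered base in any neonatal library.

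The lists differ in length by up to 10.5-fold, so the same values were taken from equal numbers of peaks, the 7353 with the smallest p-value of each list. A promoter peak among these strongest ones was then assigned to 24, 43 and 28 ribosomal protein genes in the neonatal libraries and to 20, 21 and 24 in the adult ones. The difference changed its direction to −10 genes (exact permutation p = 0.2), and neonatal replicate 1 equalled adult replicate 3. As a share of the 83 genes this was 28.9%, 51.8% and 33.7% against 24.1%, 25.3% and 28.9%, while over all genes it was 29.8%, 34.1% and 30.3% against 32.8%, 29.2% and 30.1%. The strongest adult peaks at these genes remained wider, with medians of 678, 688.5 and 720 bp against 298, 523 and 214 bp. The age difference of these medians was 350.5 bp, against 806.5 bp for the strongest promoter peaks of all genes (1086, 1101.5 and 1431 bp against 293, 637 and 269 bp). Mean covered bases were 107, 328 and 107 bp against 241, 233 and 350 bp, 1.74-fold more in adults (exact permutation p = 0.3), where all genes showed 2.91-fold.

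Among the strongest peaks, 9 of the 83 genes had more covered bases in every adult library (10.8%, against 21.5% of all genes): Rpl7, Rpl19, Rpl32, Rpl32l, Rpl36al, Rplp0, Rplp2, Rps19 and Rps20. Over whole lists Rps20 did not separate by age, with 0, 561 and 0 bp against 845, 450 and 1203 bp. The Rps20 start used here lies inside the long non-coding gene Gm32823, whose peaks cannot be told apart from those of Rps20. In the other direction 4 genes had more covered bases in every neonatal library (4.82%, against 2.57% of all genes): Rpl5, Rps15, Rps18 and Rps23. All 4 had a strongest peak near the start in the 3 neonatal libraries and none in the adult ones, a condition that 2.54% of all genes met. Over whole lists these 4 genes had more covered bases in every adult library than in neonatal replicates 1 and 3, so the condition concerns their rank within a list and not the presence of a peak. Ranks within lists of different lengths show no change in level.

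The height of promoter peaks was compared within each library, by the highest promoter peak of each gene. The median fold enrichment over background, which is the authors' own value per peak, was 4.48, 7.29 and 5.02 for ribosomal protein genes in the neonatal lists, where it was 4.95, 6.39 and 4.80 for all genes. In the adult lists it was 9.04, 7.42 and 7.98, against 9.04, 7.50 and 7.88. By the rank of the p-value within the list (100 being the strongest), the median gene's best promoter peak stood at percentile 42.3, 80.9 and 55.3 in the neonatal lists, against 60.1, 74.0 and 57.2 for all genes. In the adult lists it stood at 84.9, 83.4 and 84.8, against 85.4, 83.8 and 85.2. The ribosomal protein genes were thus near the average gene in the adult lists and neonatal replicate 3, below it in neonatal replicate 1 and above it in replicate 2. These folds and ranks were not compared between libraries. Promoter peaks made up 33 of 33, 108 of 119 and 31 of 32 peaks assigned to the 83 genes in the neonatal lists, and 146 of 176, 138 of 171 and 138 of 175 in the adult ones. Of all peaks they made up 7755 of 9097, 21065 of 31189 and 6531 of 7353 in the neonatal lists and 31730 of 72278, 31288 of 72661 and 31142 of 77002 in the adult ones, a smaller share than at the ribosomal protein genes in each list. Of the remaining adult peaks, 17 to 21 per list were distal intergenic and 12 to 15 intronic, and 5 to 8 of the intronic ones per library were assigned to Rpl32l.

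The large-subunit genes had a promoter peak in 17, 38 and 16 of 43 cases in the neonatal libraries and 39, 41 and 40 in the adult ones, or 39.5%, 88.4% and 37.2% and 90.7%, 95.3% and 93.0%, to be read against the shares of all genes given above. Rpl7, a protein of the large subunit's surface, had the most covered bases of the core genes, with 475, 1905 and 414 bp in the neonatal libraries and 2520, 2540 and 2955 bp in the adult ones. It was also the only 1 of the 83 genes with an assigned promoter peak in every neonatal library but in no adult one (0.264% of all genes); since its start was covered in all 6, this reflects the gene to which the adult peaks were assigned. Among the large-subunit genes Rpl13 came next, with 0, 1473 and 501 bp against 1973, 1523 and 2533 bp. In both genes every adult library was above every neonatal one, by little for Rpl13 in adult replicate 2.

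Several large-subunit genes did not separate by age. Rpl5, which with Rpl11 forms the 5S ribonucleoprotein that restrains Mdm2 and so stabilises p53, had 322, 637 and 289 bp in the neonatal libraries and 551, 510 and 615 bp in the adult ones. Neonatal replicate 2 was above all 3 adults at Rpl5, and the other 2 neonatal libraries were below them. Its partner Rpl11 had 202, 409 and 0 bp against 445, 573 and 1039 bp, with no overlap between the ages. Rpl17 had 379, 527 and 322 bp against 801, 525 and 841 bp, and Rpl35 had 0, 1127 and 170 bp against 1368, 1086 and 1480 bp. For both genes neonatal replicate 2 was just above adult replicate 2. Rpl22, a protein lost or mutated in some leukaemias, was covered over 0, 345 and 0 bp against 1405, 986 and 1272 bp. Rpl38, which in the mouse embryo is required for translation of Hox mRNAs, had 0, 446 and 0 bp against 1135, 709 and 1265 bp. At Rpl22 and Rpl38 the only neonatal coverage was in replicate 2 and all adults were above it.

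The small-subunit genes had a promoter peak in 13, 28 and 10 of 29 cases in the neonatal libraries (44.8%, 96.6% and 34.5%, where all genes had 34.4%, 73.9% and 30.3%) and in all 29 in each adult library. Rps10 had the broadest coverage, with 153, 715 and 265 bp in the neonatal libraries against 2331, 2432 and 2791 bp in the adult ones, and its start lies inside the long non-coding gene Gm15420, whose peaks cannot be told apart from its own. Despite this breadth no adult peak near its start was among the 7353 strongest of a list. Rps6, whose protein is the classical substrate of the S6 kinases downstream of mTOR, had 198, 1401 and 0 bp against 1977, 1657 and 1869 bp. All adult libraries were above the neonatal ones at both genes.

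Rps19 and Rps26, both mutated in Diamond-Blackfan anaemia, differed in the neonatal libraries. Rps19 had 303, 411 and 262 bp there and 898, 1045 and 1052 bp in the adults, so that it was marked in all 6 libraries. Rps26 had 0, 496 and 0 bp against 1291, 1320 and 1197 bp, with neonatal coverage in replicate 2 alone. Rps27a, made as a fusion with ubiquitin, had 252, 837 and 0 bp against 1135, 995 and 1370 bp. All 3 genes were higher in every adult library. Rps18 and Rps15 were not: Rps18 had 284, 1101 and 580 bp against 1120, 996 and 1240 bp, and Rps15 had 229, 660 and 288 bp against 725, 600 and 1185 bp. In both the value of neonatal replicate 2 exceeded that of adult replicate 2 only. The Rps18 start used here lies inside the protein-coding gene Vps52, whose peaks cannot be told apart from those of Rps18.

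The P-stalk genes encode the acidic proteins that recruit translation factors to the large subunit. All 3 were higher in every adult library, a condition that 68.6% of all genes met. Rplp0, the anchor of the stalk, had 0, 244 and 324 bp in the neonatal libraries and 467, 383 and 512 bp in the adult ones. The averages over all ribosomal protein genes were 128, 647 and 107 bp, and 1016, 997 and 1261 bp. Rplp0 was thus above the average in neonatal replicate 3 and below it in every other library. Rplp1 had 0, 521 and 188 bp against 1044, 1311 and 1181 bp, and Rplp2 had 0, 447 and 0 bp against 963, 1208 and 1294 bp. The Rplp2 start lies inside the protein-coding gene Pidd1, whose peaks cannot be told apart from those of Rplp2. None of the 3 had a peak in neonatal replicate 1.

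Assigned promoter peaks in each adult library but in none of the neonatal ones were found for 7 of the 83 genes (8.43%), where 12.1% of all genes met this condition: Rpl6, Rpl10, Rpl36a, Rpl39, Rps4x, Rpl32l and Rps12l1. At Rpl6 the neonatal peaks were assigned to another gene, since its window was covered over 205, 513 and 0 bp, against 841, 834 and 1165 bp in the adults. Without neonatal replicate 2 the count was 36 (36.3% of all genes).

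All 4 X-linked ribosomal protein genes were among these 7, and they were covered by no peak in any neonatal library. Rpl10, a late-joining protein of the large subunit, had 972, 201 and 760 bp in the adults, Rpl36a had 294, 208 and 912 bp, and Rpl39, at the exit tunnel, had 420, 222 and 968 bp. Rps4x, the X-linked S4 protein of the small subunit, had 140, 362 and 700 bp. The adult mean of the 4 genes was 457, 248 and 835 bp per library against 1045, 1035 and 1282 bp for the 79 autosomal ones, so they were also lower in the adults. None had a peak among the 7353 strongest of any list. Of the autosomal ribosomal protein genes 46.8%, 96.2% and 39.2% had a peak within 3000 bp of the start in the neonatal libraries.

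The same direction was seen over the chromosome. Of the 471 X-linked genes with a promoter peak in any list, 8.92%, 63.1% and 4.03% had a peak within 3000 bp of the start in the neonatal libraries and 89.0%, 83.0% and 89.4% in the adult ones. For the 18077 autosomal genes the shares were 38.5%, 77.9% and 34.1%, and 89.5%, 86.6% and 90.0%. A peak seen at the start in each adult library but in no neonatal one was found for 22.1% of the X-linked and 13.2% of the autosomal genes. Among equal numbers of the strongest peaks the X-linked genes were few at both ages, 5.52%, 7.01% and 4.03% in the neonatal and 6.58%, 3.82% and 3.18% in the adult libraries. The autosomal shares were then 33.7%, 39.1% and 34.1%, and 38.3%, 34.3% and 35.9%. The split by chromosome was made after these values were seen and the labels do not give the sex of the animals, so its part in the result was not tested.

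**Figure D3:**
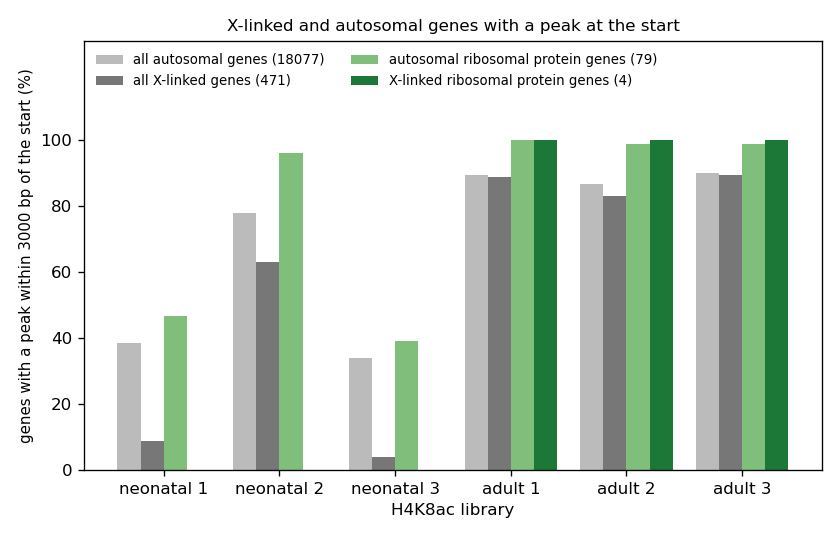
Bars give the percentage of genes with an H4K8ac peak within 3000 bp of the start in each of the 6 libraries, for all autosomal genes (18077), all X-linked genes (471), the 79 autosomal ribosomal protein genes and the 4 X-linked ones. The 4 X-linked ribosomal protein genes are at 0 in the 3 neonatal libraries and at 100% in the adult ones.

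The 8 like-named copies were the most diverse. Rpl32l, which lies inside the protein-coding gene Map7, had 0 bp in all neonatal libraries and 3787, 4414 and 5656 bp in the adult ones, the most of the 83 genes. Rps12l1, a RefSeq pseudogene inside Nipa1, had 0 bp in all neonatal libraries against 920, 1381 and 1418 bp. Because these copies lie within other genes, a peak there cannot be told apart from a peak of the host. Rps4l, a transcribed pseudogene in RefSeq that lies inside Tmtc1, had 270, 344 and 0 bp against 164, 0 and 274 bp. Rpl10l, an autosomal copy of Rpl10 known for its role in the testis, had 0, 0 and 0 bp against 138, 145 and 0 bp. These 2 had the lowest adult means of the 83 genes.

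The other copies resembled core genes. Rps27l, a p53-responsive paralog of Rps27, had 289, 1010 and 0 bp in the neonatal libraries and 1117, 1338 and 1665 bp in the adult ones. Rpl36al had 0, 929 and 0 bp against 1254, 1172 and 1341 bp, although its X-linked relative Rpl36a had no neonatal coverage. Rpl22l1, the paralog of Rpl22, had 0, 297 and 0 bp against 362, 525 and 537 bp, and Rpl7l1 had 0, 656 and 0 bp against 857, 971 and 688 bp. All 4 were higher in every adult library. Ribosomal protein genes have many near-identical processed copies in the mouse genome, and how reads matching several places were treated is not given in the sources used here.

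Peaks at ribosomal protein genes were compact and sat on either side of the start. In the adult libraries 66.3%, 65.1% and 77.1% of the 83 genes were covered at the upstream maximum, 280, 290 and 390 bp before the start. Coverage fell to 36.1%, 34.9% and 50.6% at 70 or 80 bp before the start and was highest, at 83.1%, 81.9% and 91.6%, between 130 and 150 bp after it. Over all genes the adult values were 47.4%, 46.3% and 54.9% upstream, 44.1%, 39.8% and 50.0% in the dip and 67.1%, 64.8% and 69.5% downstream, so the ribosomal protein genes fell further from the upstream maximum into the dip. At 1000 bp after the start 2.41%, 1.20% and 3.61% of the ribosomal protein genes were still covered in the adults, against 16.7%, 16.4% and 22.3% of all genes. At 1000 bp before the start the shares were 16.9%, 14.5% and 16.9%, against 14.1%, 14.6% and 20.1%. The ribosomal protein genes have a median RefSeq length of 3139 bp, against 20254 bp for the 16136 of all genes with a length, and the part of gene length in the short downstream reach was not tested.

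The side of the start that was covered differed by age. Bases before the start made up 22.9%, 41.9% and 33.3% of the covered bases of the 83 genes in the neonatal libraries and 51.1%, 52.3% and 52.5% in the adult ones. Over all genes the shares were 34.0%, 40.5% and 32.7%, and 45.3%, 45.6% and 46.7%, in the same direction and over a smaller span. Among equal numbers of the strongest peaks the ribosomal protein genes had 22.6%, 25.9% and 33.3% against 34.1%, 44.4% and 44.3%, and the ages still did not overlap. Over all genes the shares were then 33.8%, 36.9% and 32.7% against 41.0%, 41.9% and 44.7%, also without overlap. In neonatal replicate 2 the downstream maximum, 80.7% of genes, was near the adult values, while the upstream one, 45.8%, was below all of them. This comparison was added after the profiles had been seen and is given without a test. Many of the 83 genes have another gene over the start or within 1000 bp of it. Protein-coding examples are Lias at Rpl9, Mgat2 at Rpl36al and Card6 at Rpl37. The part of such neighbours in the upstream coverage was not tested.

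**Figure D4:**
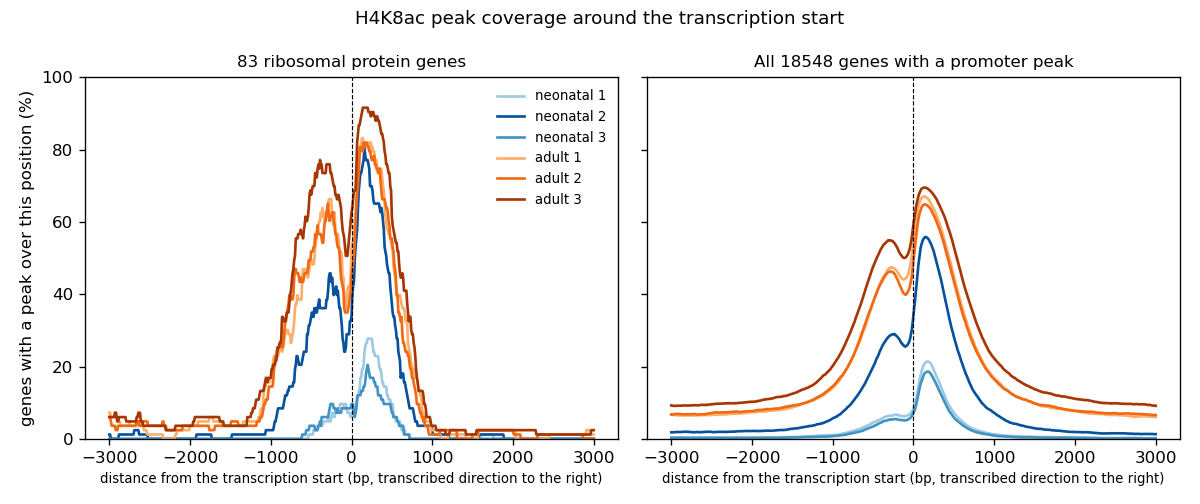
Lines give the percentage of genes with a peak over each position from 3000 bp before to 3000 bp after the transcription start, for the 83 ribosomal protein genes (left) and all 18548 genes (right), 1 line per library. At the ribosomal protein genes the adult lines form a pair of maxima around a dip just before the start and lie under 4% at 1000 bp after it; the neonatal lines lie mostly after the start.

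The authors' deposited table of differential sites lists sites with a log2 fold change between the ages. Positive values were taken to mean more signal in adults, because 85.0% to 96.7% of the positive sites overlapped a peak of each adult library and 10.3% to 27.8% a peak of each neonatal one. Of the 43888 sites in the authors' deposited table, 43634 were positive. A promoter site there was found for 54 of the 83 genes (65.1%), all positive. Of all 18548 genes 12082 had a promoter site, and for 11956 of these (64.5% of all genes) it was positive. Taking for each gene the site of smallest p-value, the authors' deposited table gave a median log2 fold change of 1.48 (range 0.90 to 4.94) over the 54 genes and of 1.77 over the 12082 genes with a site, and 35 of the 54 lay below the latter. By subunit, the authors' deposited table gave medians of 1.43 for large-subunit, 1.28 for small-subunit and 1.84 for P-stalk genes.

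By the site of smallest p-value, the genes with the largest values in the authors' deposited table were Rps12l1 (4.94), Rps4x (3.50), Rpl32l (3.27), Rpl3 (3.24) and Rpl22 (2.94). The authors' adjusted p-values of these sites were 7.6e-10, 0.0028, 1.4e-06, 0.00033 and 5.7e-05 in the same order. Another site within 3000 bp of the start had 5.46 at Rps12l1, 1.42 at Rps4x and 1.57 at Rpl22 in the authors' deposited table. The Rpl3 site lies far upstream, at −8937.5 bp from the start used here. Nearer sites, within 3000 bp of the Rpl3 start, had 1.63 and 1.46 in the authors' deposited table. Among the smallest, again from the authors' deposited table, were 0.90 at Rpl32, 0.96 at Rpl13, 0.96 at Rpl9 and 0.97 at Rps23, with authors' adjusted p between 0.016 and 0.034. Of the genes described above, the authors' deposited table gave 2.77 at Rpl38, 2.22 at Rps19, 1.89 at Rplp2, 1.84 at Rplp1, 1.35 at Rplp0, 1.35 at Rpl11, 1.13 at Rps26 and 1.01 at Rps27a. A further site near the start had 1.24 at Rps19, 1.45 at Rplp1 and 1.77 at Rps26 in the authors' deposited table. No promoter site was assigned there to Rpl5, Rpl7, Rpl10, Rpl36a, Rpl39, Rps6, Rps15 or Rps18, and a gene without a site there was not shown to be equal between the ages. A site at −351.5 bp from the Rpl7 start had a log2 fold change of 1.12 in the authors' deposited table (authors' adjusted p = 0.0095), but was assigned to another gene.

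**Figure D5:**
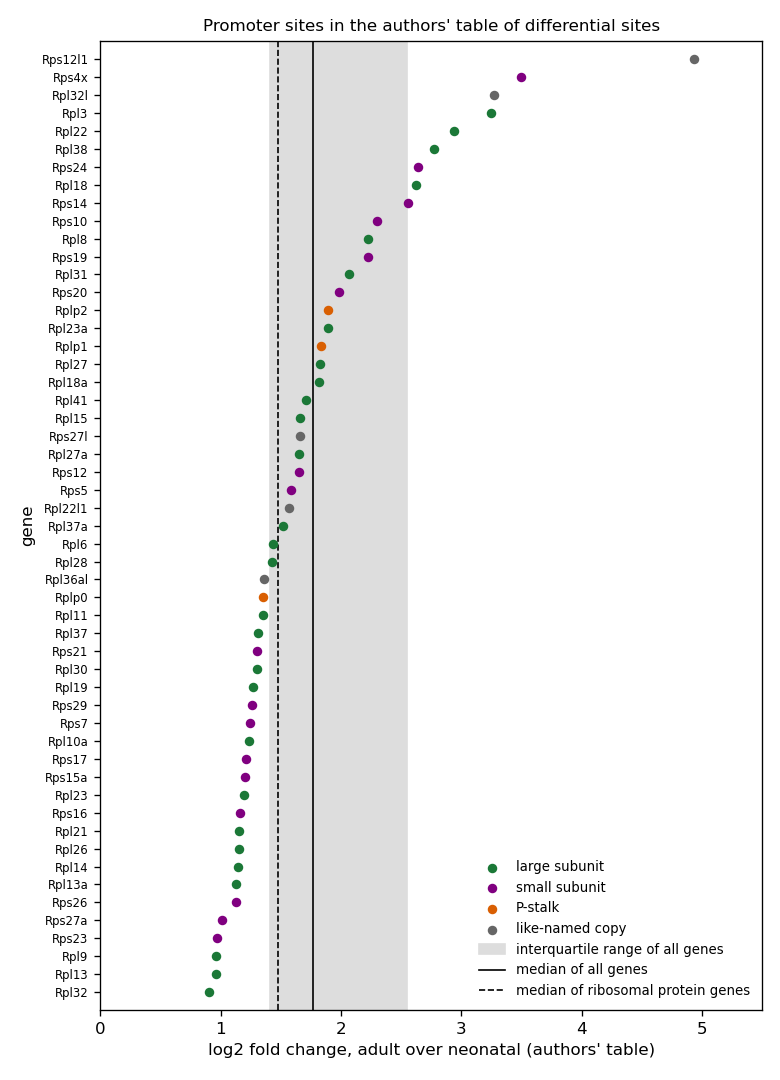
Points give the log2 fold change, adult over neonatal, of the promoter site of smallest p-value in the authors' table for the ribosomal protein genes named, coloured by subunit. All lie above 0, as do 11956 of the 12082 genes with a site. The dashed line is the median of all 54 ribosomal protein genes with a site (1.48). The solid line is the median of the 12082 genes (1.77) and the grey band their interquartile range.

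Other genes of translation were counted in the same way. The 4 further cytosolic ribosome genes whose symbols the rule does not match (among them Rpsa, Fau and Rack1) were all higher in every adult library; Rpsa, the laminin-receptor protein of the small subunit, had 195, 366 and 166 bp against 933, 855 and 1017 bp. Of 30 translation factors 29 were higher in every adult library, and so were 22 of 29 ribosome biogenesis genes and 66 of 75 mitochondrial ribosomal protein genes (88.0%), all to be read against 68.6% of all genes. Among equal numbers of the strongest peaks 11 of 30 translation factors, 5 of 29 ribosome biogenesis genes and 12 of 75 mitochondrial ribosomal protein genes met this condition (36.7%, 17.2% and 16.0%), against 21.5% of all genes. Eef1a1, the factor that brings aminoacyl-tRNA to the ribosome, had 510, 886 and 412 bp in the neonatal libraries and 2350, 2378 and 3415 bp in the adult ones. Translation factors had more neonatal coverage than the ribosomal protein genes, with averages of 281, 807 and 271 bp, and adult averages of 1359, 1188 and 1538 bp. Median log2 fold changes from the authors' deposited table were 1.44 for translation factors, 1.58 for ribosome biogenesis genes and 1.59 for mitochondrial ribosomal protein genes.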

How the data were processed

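H4K8ac ChIP-seq of 3 neonatal and 3 adult OPC samples was analysed from the 6 peak lists and the table of differential sites. Per the submitters' processing notes, Trim Galore, Bowtie2 2.4.5, SAMtools, deepTools, MACS2, DiffBind and ChIPseeker and the build GRCm38 were used, with no role or order given. Per peak, the authors deposited the position, nearest gene, class, fold enrichment (a linear ratio), score, and the −log10 of both p-value and q-value. Per site, the authors' deposited table gives log2 fold change, p-value and adjusted p-value (all under 0.05) but nothing by library. Read numbers are not part of the files.

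With Python 3.11.15, pandas 2.3.3 and scipy 1.17.1, promoter peaks were counted as annotated by the authors. Each gene's start was the transcript start that its promoter peaks used most often within 1000 bp of the RefSeq gene, and all peaks within 3000 bp of it were intersected by position. Neonatal and adult libraries were compared by an exact permutation test, two-sided, which enumerates 20 arrangements (smallest p = 0.1), adjusted by the Benjamini-Hochberg method over 4 quantities. Counts of genes were set beside the same counts over all 18548 genes, without a test. The code was checked on simulated peaks.

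The members and gene lists were chosen with earlier results of these data known. Genes named were the P-stalk genes, those with a promoter peak at 1 age only, the 5 highest and lowest by adult coverage and by the authors' log2 fold change, up to 5 without separation of the ages, genes of known disease or signalling roles, and like-named copies; Eef1a1, Rpsa, the 6 genes shown by sequence and those named among the strongest peaks were picked after their values were seen. A few genes that the rules would name are not reported here by name. Samples are labelled as biological replicates. Their numbers were not taken as pairs: deviations of same-numbered libraries correlated at −0.04, 0.02 and 0.08 over genes. Alternatives were equal numbers of peaks, a stricter q-value, merged peaks, other windows or assignments, each library left out, and, added later, the RefSeq start and the list without its copies or X-linked genes.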

Additional observations from a re-analysis of the deposited data

How the results depend on the processing

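Of the comparisons of ages, the number of ribosomal protein genes with a promoter peak reversed under equal numbers of the strongest peaks. The difference was then −10 genes, against 34.7 over whole lists. Width and covered bases kept their direction under every alternative run, but their size moved. With peaks within 1000 bp merged, the width difference was 754 bp instead of 221 bp and the ratio of promoter bases 7.79 instead of 5.46. Under equal numbers, 9 genes instead of 65 were higher in every adult library (10.8%, against 21.5% of all genes). A promoter peak in adults alone was then found for 1 gene instead of 7 (1.20%, against 2.20% of all genes). In the other direction, 5 genes had one in the neonatal libraries alone (6.02%, against 2.45% of all genes). Over whole lists the number with a promoter peak in adults alone was 3 without the X-linked genes. Of all genes, X-linked ones included, 12.1% met that condition. Leaving out a library gave differences of 26.3 to 49.3 genes and 181 to 265 bp of width, ratios of 3.95 to 9.52 for promoter bases and 3.77 to 9.27 for bases near the start, 65 to 81 genes higher in every adult library and 7 to 36 with adult promoter peaks alone, the upper end of each being without neonatal replicate 2. Over all genes the shares behind the last 2 counts ranged from 68.6% to 80.2% and from 12.2% to 36.3%. From the authors' deposited table, the median log2 fold change came to 1.54 with the largest site per gene, 1.98 at an adjusted p under 0.005 (27 genes), 1.44 by position and 1.43 without like-named copies. With the replicate block, an exact sign-flip test in which p cannot go below 0.25, the difference was again 34.7 genes and 221 bp and the ratios 5.46 and 5.24, all at p = 0.25. Whether depth, sorting or age sets the neonatal lists' lengths was not tested, and the exact tests used here could not reach 0.05.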
